A study of Mus musculus with 4 samples.

Results

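The genes described here are 10 simple epithelial keratin and junction genes, Krt8, Krt18, Krt19, Krt7, Cdh1, Epcam, Cldn4, Cldn6, Cldn7 and Tjp1, in mouse pluripotent stem cells, out of 18193 genes measured. Their 13 probe sets, of 45037 that are not controls, are each annotated with a single gene, and 12 of the 13 had a mean over the 4 arrays that reached the median over all probe sets. The list was chosen from an observation on these same arrays: Krt8 and Krt18 stood higher on the arrays of lines NT-1 and NT-2 than on those of the clone Adeno-1 and line NT-3. Values of Krt8 and Krt18 are therefore given as a description without a test, and the question is whether the other 8 genes, with 9 probe sets, had the same order. NT-1, NT-2 and NT-3 are nuclear-transfer embryonic stem cell (NT-ESC) lines of cloned blastocyst origin, with Adeno-1 as the nuclear donor. Adeno-1 is 1 clone of induced pluripotent stem cells (iPSC) that originated from tail-tip fibroblasts and is labelled an Adeno-iPSC. All 4 cultures were kept in medium with serum and LIF, over a layer of irradiated feeder fibroblasts (MEFs), which were reduced by preplating for 45 min before RNA extraction, and each culture was hybridised to 1 Affymetrix array. The labels call the lines subclones and do not say whether they were separate derivations, the mouse strain is not given in the labels, and no line or clone has a second array, so a difference between single arrays has no replicate error.

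Simple epithelia build their intermediate filaments from type II keratins (Krt8, Krt7) paired with type I keratins (Krt18, Krt19), and Krt8 and Krt18 are the pair that appears earliest in the mouse embryo, in trophectoderm and endoderm. The E-cadherin gene Cdh1 encodes the adhesion molecule of adherens junctions, Epcam a surface adhesion protein of epithelial and embryonic stem cells, the Cldn genes the claudin strands of tight junctions, and Tjp1 the scaffold ZO-1 to which claudins bind. Mouse embryonic stem cells are epithelial in this sense: they depend on E-cadherin for compact colonies, while keratins are better known as signs of early differentiation. Levels below are log2 intensities with the mean of each array set to an assumed 7, and log2 differences and folds scale with that choice.

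Krt8, the type II partner, stood at 9.62 in NT-1, 9.35 in NT-2 and 8.41 in NT-3, against 8.39 in Adeno-1, by its brightest probe set (1420647_a_at). The levels of NT-3 and the clone were 0.01 apart, while NT-1 was 2.33-fold and NT-2 1.94-fold above the clone. The other probe sets of Krt8 (1423691_x_at and 1435989_x_at) gave the same order, with NT-1 at 9.31 and 8.63, NT-2 at 9.0 and 8.47 and NT-3 at 8.0 and 7.67, against 8.07 and 7.73 in Adeno-1. By Affymetrix naming, the x in both identifiers marks probes that may also bind other transcripts. Krt18 (1448169_at), the type I partner, stood at 9.37 in NT-1, 9.08 in NT-2 and 8.01 in NT-3, against 8.30 in Adeno-1. Its lowest array was NT-3, 0.29 below the clone, and its level in NT-1 was 2.56-fold that in NT-3. These 4 probe sets ranked 1 to 4 of all 45037 by the gap between the lower of NT-1 and NT-2 and the higher of Adeno-1 and NT-3, from 0.95 to 0.74 log2, so the list was built around the extreme of this order. The median range over the 4 arrays was 0.19 log2 over all probe sets, against 1.22 for the brightest Krt8 probe set and 1.36 for Krt18. Between NT-1 and NT-2 the distance was 0.26 for Krt8 and 0.28 for Krt18.

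Krt8 and Krt18 lie close together at the end of the type II keratin cluster of chromosome 15, with only the predicted genes Gm36026 and Gm41404 listed between them in RefSeq. The 250 bases before their annotated starts are shown because both genes were high on the same arrays; Cldn4, which had the same order of arrays with a smaller gap, and Epcam, which did not, are shown beside them. Sequences are from RefSeq (GRCm38.p6), written 5′ to 3′ on the strand of the gene, and capitals mark CACCTG or its complement CAGGTG, the E-box form bound by the Snail and Zeb repressors of epithelial genes.
Krt8 (chr15:102004343-102004592, minus strand): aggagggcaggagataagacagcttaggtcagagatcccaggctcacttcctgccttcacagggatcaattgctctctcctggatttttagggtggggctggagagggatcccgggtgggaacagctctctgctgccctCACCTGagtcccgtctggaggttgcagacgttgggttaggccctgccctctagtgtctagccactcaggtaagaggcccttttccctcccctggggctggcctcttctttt
Krt18 (chr15:102027966-102028215, plus strand): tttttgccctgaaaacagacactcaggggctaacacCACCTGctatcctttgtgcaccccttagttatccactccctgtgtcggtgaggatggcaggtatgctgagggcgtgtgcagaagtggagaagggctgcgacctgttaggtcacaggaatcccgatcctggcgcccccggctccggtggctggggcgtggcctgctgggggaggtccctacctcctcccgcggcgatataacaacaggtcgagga
Cldn4 (chr5:134946935-134947184, minus strand): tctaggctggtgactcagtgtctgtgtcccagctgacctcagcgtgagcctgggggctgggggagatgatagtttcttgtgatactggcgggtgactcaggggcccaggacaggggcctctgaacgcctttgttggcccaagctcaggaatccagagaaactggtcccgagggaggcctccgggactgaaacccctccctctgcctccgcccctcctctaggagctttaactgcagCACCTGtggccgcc
Epcam (chr17:87635729-87635978, plus strand): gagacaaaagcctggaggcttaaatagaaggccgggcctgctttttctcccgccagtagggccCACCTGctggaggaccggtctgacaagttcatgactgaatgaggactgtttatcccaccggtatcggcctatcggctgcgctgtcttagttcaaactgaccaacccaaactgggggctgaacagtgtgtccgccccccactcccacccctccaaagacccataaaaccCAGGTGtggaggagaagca

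The first E-box letter stood 111 bases before the start of Krt8, 214 before that of Krt18, 14 before that of Cldn4, and 187 and 19 before that of Epcam. Of the 8 member genes in the RefSeq promoter table, 6 held CACCTG on either strand at their first listed start, as did 17.1% of the first listed promoters of 27025 genes. The 2 exceptions at that start were Tjp1 and Cldn7, and the other listed start of Cldn7 held it at 97 and 57 bases. No promoter of Krt19 or Cdh1 was listed, so both are left out here. Among the 8 genes listed, the letters were thus present in genes with the keratin order and in genes without it. The GC box GGGCGG was in 5 of the 8 first starts (32.9% of all), and the AP-2 form GCCNNNGGC in 2, Krt18 and Krt7 (13.6% of all). The grainyhead form AACCGGTT was in none of the 8 (0.122% of all). All motifs were searched on both strands, and overlapping matches of different or equal motifs occurred only in Krt7. A match describes letters and not binding.

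**Figure D1:**
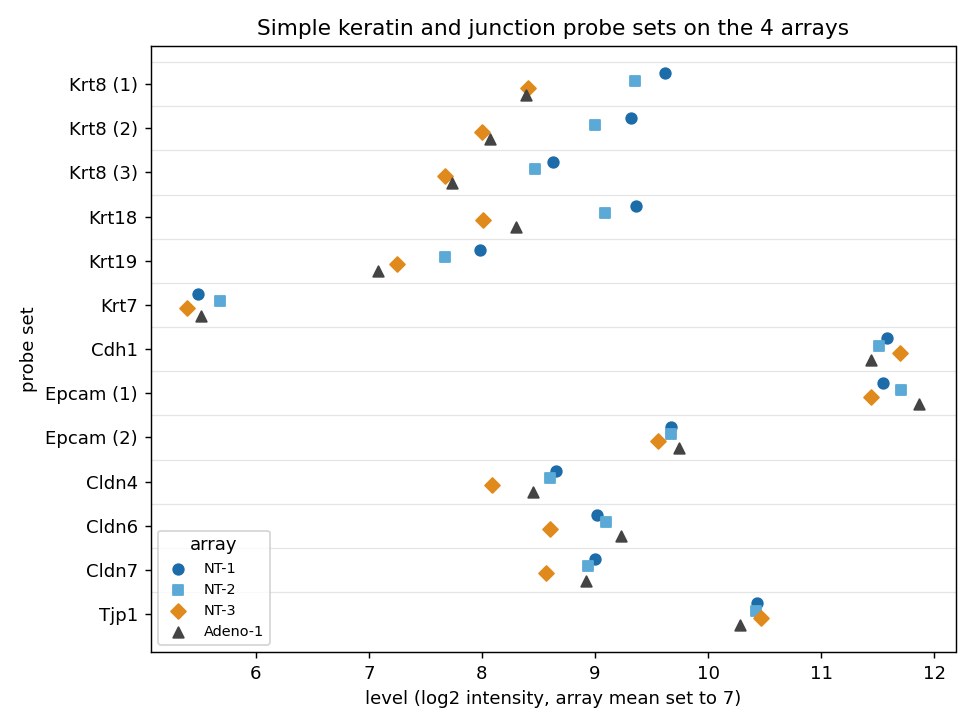
Level (log2 intensity, array mean set to 7) of each of the 13 probe sets on the 4 arrays, 1 symbol per array, with no replicates. For Krt8 and Krt18 the lower of NT-1 and NT-2 lies 0.74 to 0.95 to the right of the higher of NT-3 and Adeno-1. For Krt19 this gap is 0.42, and for Tjp1 all 4 symbols lie within 0.19.

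Krt19, the smallest type I keratin, was the member that came closest to Krt8 and Krt18. It stood at 7.99 in NT-1, 7.67 in NT-2 and 7.25 in NT-3, against 7.08 in Adeno-1, so NT-1 and NT-2 were the higher arrays and did not overlap the others. NT-1 was 1.88-fold and NT-2 1.51-fold above the clone, and NT-3 was 1.13-fold above it, unlike Krt18. Its gap of 0.42 log2 ranked 23 of 45037. Krt19 lies on chromosome 11, in the type I cluster, away from Krt18. Krt7, a type II keratin of ducts and trophoblast, stood at 5.49 in NT-1, 5.68 in NT-2 and 5.39 in NT-3, against 5.52 in Adeno-1. It was the 1 member under the median level of all probe sets, and its arrays were in no such order.

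The claudins had different orders. Cldn4, a claudin of tight epithelia, stood at 8.65 in NT-1, 8.60 in NT-2 and 8.09 in NT-3, against 8.45 in Adeno-1. Cldn7, a claudin known to bind Epcam, stood at 9.0, 8.94 and 8.57 in NT-1, NT-2 and NT-3, against 8.92 in Adeno-1. Both had NT-1 and NT-2 on top, but with gaps of 0.15 and 0.02, and in both it was NT-3 that stood apart, 0.37 and 0.35 below the clone. Cldn6, a claudin of embryonic epithelia and pluripotent cells, stood at 9.02, 9.10 and 8.60 in NT-1, NT-2 and NT-3, against 9.23 in Adeno-1, where it was highest. NT-3 was thus the lowest array for all 3 claudins, and its Cldn6 level was 1.55-fold below that of the clone, the widest range among the junction members.

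The adhesion and scaffold members did not share the keratin order. Cdh1 stood at 11.58 in NT-1, 11.51 in NT-2 and 11.69 in NT-3, against 11.44 in Adeno-1, a range of 0.25 with NT-3 highest. Cdh1 lies on chromosome 8, where the 1058 probe sets at or above the median level had a median of 0.29 for NT-3 minus Adeno-1, against 0.00 for 18538 probe sets of other chromosomes. Its part in the Cdh1 level, 0.25 above the clone in NT-3, was not tested. Epcam stood at 11.55 in NT-1, 11.71 in NT-2 and 11.43 in NT-3, against 11.86 in Adeno-1 (1416579_a_at), and at 9.67, 9.68 and 9.56, against 9.74, by 1447899_x_at. Both probe sets placed the clone highest and NT-3 lowest. Tjp1 stood at 10.43, 10.42 and 10.47 in NT-1, NT-2 and NT-3, against 10.28 in Adeno-1. The lines were 1.10-fold to 1.14-fold above the clone and within 0.05 of each other.

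**Figure D2:**
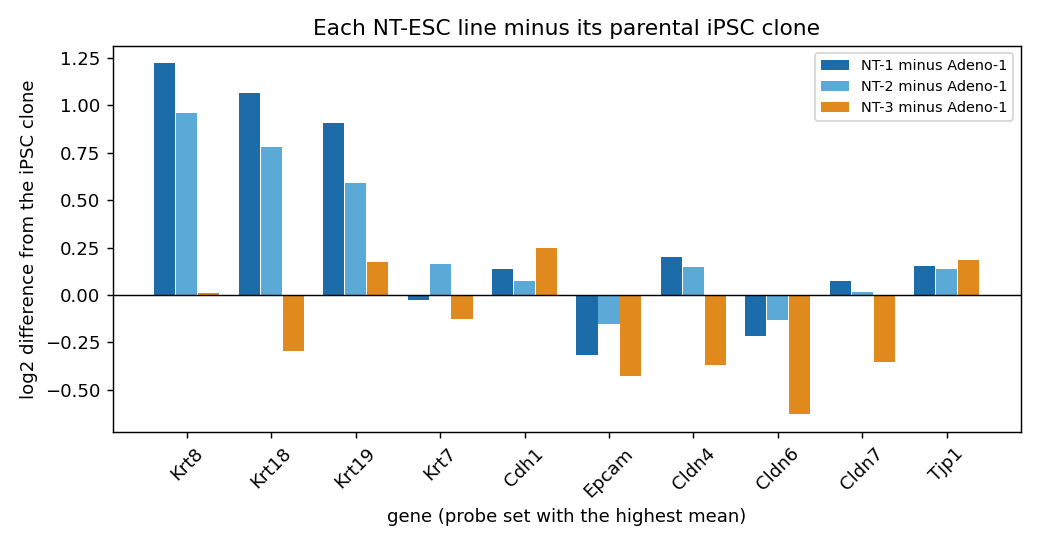
Log2 difference of NT-1, NT-2 and NT-3 from Adeno-1 for the brightest probe set of each gene, 1 bar per line, with no error bars because each line has 1 array. The bars share the Adeno-1 value. Krt8, Krt18 and Krt19 differ by 0.59 to 1.22 in NT-1 and NT-2, and the bars of NT-3 are below 0 for Krt18, Krt7, Epcam and all 3 claudins.

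Over the 9 probe sets that the observation did not use, 3 had NT-1 and NT-2 above Adeno-1 and NT-3 (Krt19, Cldn4 and Cldn7), where 16.6% of all probe sets had that order. Among those at or above the median level it was 3 of 8, against 21.5%. With a gap of at least 0.2 log2 it was 1 of 9, Krt19, against 0.997%. With Krt8 and Krt18 included the counts were 7 and 5 of 13, from which nothing is read. Krt19 was also the 1 of these 9 probe sets at least 1.5-fold above the clone in NT-1 (0.329% of all probe sets) and in NT-2 (0.14%), and none reached that in NT-3 (0.731%). NT-3 was the lowest array for 6 of the 9, against 26.2%: Krt7, Cldn4, Cldn6, Cldn7 and both probe sets of Epcam. Without NT-3, 5 of the 9 had NT-1 and NT-2 above Adeno-1 (32.7% of all), and without Adeno-1, 7 of the 9 had them above NT-3 (34.3%). These conditions share arrays and are not independent of each other.

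**Figure D3:**
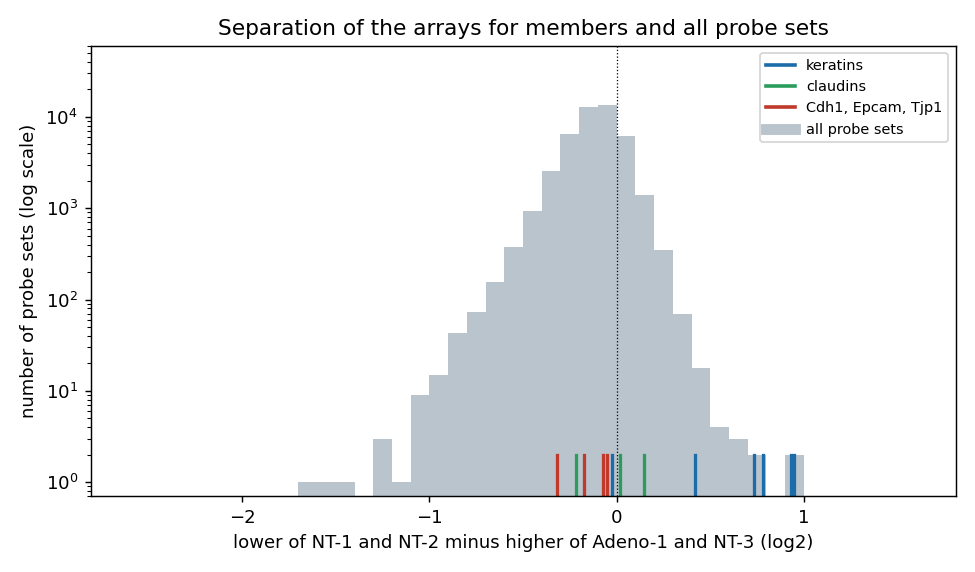
Number of probe sets (log axis) by the gap between the lower of NT-1 and NT-2 and the higher of Adeno-1 and NT-3, in log2; grey bars are all 45037 probe sets and short coloured lines the 13 members. The 5 lines to the right of 0.4 are those of Krt8, Krt18 and Krt19, while Cldn4 lies at 0.15 and the lines of Cdh1, Epcam and Tjp1 lie below 0.

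Between the NT-ESC lines as a group and the iPSC clone, no member passed limma's test. The background was also empty, with 0% of 45037 probe sets called (smallest Benjamini-Hochberg adjusted p = 0.849 by limma), although 2609 had an unadjusted p under 0.05, 1548 higher and 1061 lower in the lines. Of the 9 probe sets tested here, 0 were under that limit. Krt19 averaged 7.64 ± 0.37 (SD, n = 3) in the lines and 7.08 in the clone, a difference of 0.56 ± 0.26 (SE; limma, Benjamini-Hochberg adjusted p = 0.857). Epcam averaged 11.56 ± 0.14 and 11.86, a difference of -0.30 ± 0.12 (adjusted p = 0.849 by limma), and Tjp1 10.44 ± 0.03 and 10.28, a difference of 0.16 ± 0.08 (0.858). Cdh1 differed by 0.15 ± 0.10, Cldn6 by -0.33 ± 0.20 and Cldn7 by -0.09 ± 0.18. Without NT-3 the difference was -0.17 for Cldn6 and 0.05 for Cldn7. Cldn4 (-0.01 ± 0.23) and Krt7 (0.00 ± 0.13) had means within 0.01 of the clone, where for Cldn4 NT-1 and NT-2 lay above it and NT-3 below. Krt19, Cdh1 and Tjp1 were higher in all 3 lines than in the clone, 3 of 9 against 23.8% of all probe sets, and Cldn6 and both Epcam probe sets were lower in all 3, 3 of 9 against 27.5%. For each probe set the residual spread comes from the 3 NT-ESC arrays alone, and the clone's array is assumed to vary like them. limma moderates that spread toward the one estimated over all probe sets, so the SEs and p-values rest on both. For Krt8 and Krt18 the spread between the lines is itself the order described above, with SDs of 0.64 and 0.72 over the lines.

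The genes whose levels over the 4 arrays were most like those of Krt8 were sought among 11746 other genes at or above the median level, by the root mean square difference after each gene's own mean was subtracted. Krt18 was the nearest at 0.11, followed by Zfp934 at 0.17, Acta1, the skeletal muscle actin, at 0.18, Krt19 at 0.22 and Efhc2 at 0.26. Acta1, which lies on chromosome 8, stood at 8.01 in NT-1, 7.85 in NT-2 and 7.03 in NT-3, against 7.27 in Adeno-1. Zfp934 stood at 8.64, 8.38 and 7.77, against 7.73, and Efhc2 at 8.17, 7.68 and 6.51, against 7.21. The other members ranked far behind Krt19: Cldn4 at 150, Cldn7 at 700, Tjp1 at 4223, Cldn6 at 5074, Cdh1 at 7517 and Epcam at 9706. With 4 arrays this likeness is a description and carries no p.

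The wider epithelial programme was followed in 7 further lists, which held 101 measured genes beside the members, each by its brightest probe set. None of the 101 passed limma's test in either direction, their median difference between the lines and the clone was 0.02, and that of all 18193 genes was -0.00. NT-1 and NT-2 stood above Adeno-1 and NT-3 for 34 of the 101 genes, where 18.9% of all genes had that order. Of those at or above the median level it was 29 of 73, against 23.8%, and with a gap of at least 0.2 it was 5 of 101, against 1.14%. Those 5 were Dsp, Tjp3, Erbb3, Vcl and Patj. Patj has a mean under the median level and is named after its values were seen. No gap in the 7 lists exceeded the 0.34 of Dsp. At or above the median level, 6 of 10 adherens junction and 6 of 12 tight junction genes had the order. So did 3 of 10 desmosome and linker genes, 4 of 12 polarity genes and 6 of 11 transcription and splicing factors. It was 3 of 13 for other surface genes and 1 of 5 for other keratins, each to be set against 23.8%.

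Dsp encodes desmoplakin, which ties keratin filaments to desmosomes. It stood at 8.24 in NT-1, 8.41 in NT-2 and 7.74 in NT-3, against 7.91 in Adeno-1. Of the 12 desmosome and linker genes 3 had this order (25%, against 18.9% of all genes). The desmosomal cadherin Dsg2 stood at 9.76, 9.01 and 9.45, against 9.46, and the p53 target Perp at 8.62, 8.42 and 8.84, against 8.14. In the adherens junction list 7 of 11 genes had the order (63.6%, against 18.9% of all genes). Its plaque protein plakoglobin, Jup, which also binds desmosomes, stood at 9.76, 9.75 and 9.44 in NT-1, NT-2 and NT-3, against 9.60 in Adeno-1, and vinculin, Vcl, at 10.68, 10.55 and 10.25, against 10.35. Ctnnb1, beta-catenin, stood at 12.65, 12.57 and 12.49, against 12.50. Cdh3, P-cadherin, which like Cdh1 lies on chromosome 8, stood at 7.93, 8.09 and 8.24, against 7.96.

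In the tight junction list 6 of 23 genes had the order (26.1%, against 18.9% of all genes). Tjp3, which encodes the scaffold ZO-3, stood at 7.81 in NT-1, 7.85 in NT-2 and 7.52 in NT-3, against 7.32 in Adeno-1, while occludin, Ocln, stood at 7.38, 7.40 and 7.75, against 7.59, and Cxadr at 7.55, 7.39 and 7.18, against 7.45. Of the other keratins, simple and stratified, 3 of 14 had it (21.4%, against 18.9%), and 5 of the 14 reached the median level. Krt17, a keratin of skin appendages, is under the median level and is named after its values were seen. It had the order, at 6.08, 5.90 and 5.41, against 5.83, with NT-3 lowest. Krt42, the brightest of the 14 and also named after its values were seen, had it at 9.98, 9.97 and 9.95, against 9.95. Its range was only 0.03 and its gap 0.01. Krt80 stood at 7.0, 6.76 and 6.94, against 7.0, Krt5 at 7.41, 7.29 and 7.52, against 7.54, and Krt4 at 7.18, 7.23 and 7.24, against 7.42. In the polarity list 5 of 13 had it (38.5%, against 18.9%). Pard6b stood at 8.14, 7.92 and 7.76, against 7.78, and Patj at 6.82, 6.86 and 6.56, against 6.59, whereas Pard3, on chromosome 8, stood at 8.94, 8.87 and 9.34, against 8.95, and Llgl2 at 9.64, 9.58 and 9.67, against 9.33.

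Transcription and splicing factors of epithelia had the order in 7 of 14 genes (50%, against 18.9% of all genes), none with a gap of 0.2. Grhl2, a grainyhead factor that activates Cdh1 and claudin genes, stood at 8.71 in NT-1, 8.71 in NT-2 and 8.04 in NT-3, against 8.84 in Adeno-1, and so was low in NT-3 but not in the clone. Its relative Grhl3 stood at 7.52, 7.62 and 8.22, against 7.30, with NT-3 highest. Tfap2c, the AP-2 factor of trophoblast and germ cells, stood at 9.25, 8.97 and 8.92, against 8.49, and Klf5 at 11.95, 11.80 and 11.86, against 11.85. Other surface genes had the order in 3 of 14 (21.4%, against 18.9%). The receptor Erbb3 stood at 8.97, 8.96 and 8.74, against 8.47, the protease St14 at 8.87, 8.93 and 8.90, against 8.53, and Prss8 at 6.87, 6.92 and 6.70, against 7.09.

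**Figure D4:**
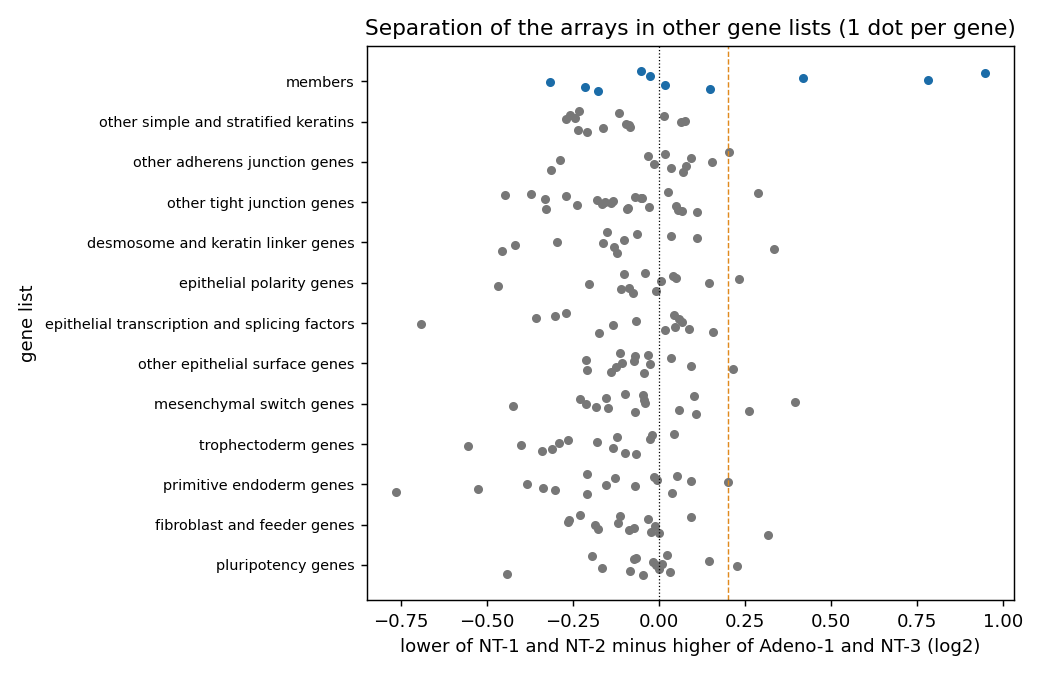
Gap between the lower of NT-1 and NT-2 and the higher of Adeno-1 and NT-3 (log2) for the 10 members (blue) and for each gene of the other lists (grey, 1 dot per gene, its brightest probe set). The dotted line marks 0 and the dashed line 0.2. Krt8, Krt18 and Krt19 lie at 0.95, 0.78 and 0.42, and the farthest dot to the right among the epithelial lists is Dsp at 0.34.

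Markers of pluripotency were bright on every array, on which they reached levels far over the median: Pou5f1 stood at 12.20 to 12.25 in the lines and at 12.22 in the clone, Sox2 at 12.46 to 12.62 and 12.40, and all 15 genes of that list reached the median level. Nanog stood at 12.28 in NT-1, 12.28 in NT-2 and 12.04 in NT-3, against 12.05 in Adeno-1, a gap of 0.23 in the keratin order. In the pluripotency list 5 of 15 genes had the order (33.3%, against 23.8% of genes that reached the median level). Its widest ranges were those of Tfcp2l1, at 10.84, 10.68 and 10.75, against 10.11, Fgf4, at 11.15, 11.43 and 10.83, against 11.24, and Tbx3, at 9.68, 9.64 and 9.50, against 9.12.

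Other cell types that make simple keratins, and the feeder fibroblasts, were followed by their own markers. Of 14 trophectoderm genes, which include Krt7 and Tfap2c, 1 had the keratin order (7.14%, against 18.9% of all genes), and the summed log2 level of the list was 100.7 to 101.3 in the lines and 100.1 in the clone. Cdx2, the factor that defines trophectoderm, was under the median level on every array, at 6.11, 6.23 and 6.08 in NT-1, NT-2 and NT-3, against 6.45 in Adeno-1. Eomes stood at 7.99, 7.83 and 8.38, against 7.65, and Esx1 at 7.51, 7.65 and 7.91, against 7.29, both highest in NT-3. Of 16 primitive endoderm genes 4 had the order (25%, against 18.9%), with a summed level of 119.3 to 120.0 in the lines and 118.8 in the clone. Gata6 (6.39 to 6.77 in the lines, 6.56 in the clone), Gata4 (6.31 to 6.47 and 6.34) and Sox17 (6.09 to 6.13 and 6.21), which define that layer, were also under the median level of 6.83. Lama1, a basement membrane laminin, was a member of this list with the order, at 9.58 in NT-1, 9.14 in NT-2 and 8.41 in NT-3, against 8.94 in Adeno-1, while Dab2 stood at 7.34, 7.48 and 7.68, against 7.32, and Col4a1, on chromosome 8, at 8.62, 8.57 and 9.33, against 8.41.

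Of 15 fibroblast and feeder genes 2 had the order (13.3%, against 18.9% of all genes), and the summed level was 122.7, 124.6 and 122.8 in NT-1, NT-2 and NT-3, against 122.6 in Adeno-1. Col1a1 stood at 9.95, 10.18 and 9.95, against 9.87, Col3a1 at 9.48, 9.89 and 9.57, against 9.44, and both were highest in NT-2. The genes of the list with the keratin order were Ccn2 and Thbs1, and the part of feeder RNA in that order was not tested. Ccn2 stood at 10.33, 10.41 and 9.83, against 10.01, and Thbs1 at 10.48, 10.46 and 10.14, against 10.36. Genes of the mesenchymal switch had the order in 5 of 16 (31.2%, against 18.9% of all genes). Among the 14 at or above the median level it was also 5, against 23.8% of genes at that level. The gap was at least 0.2 for 2 of the 16 (Cdh2 and Tagln, against 1.14% of all genes). The median difference of the list was 0.02 between the lines and the clone. Tagln stood at 10.22, 10.23 and 9.40, against 9.82, Cdh2, N-cadherin, at 7.35, 7.22 and 6.45, against 6.96, Acta2 at 10.40, 10.28 and 9.80, against 10.18, and vimentin, Vim, at 12.47, 12.50 and 12.20, against 12.37. With Fn1, these 4 were the mesenchymal genes that had the keratin order. The Snail and Zeb genes of the list, named after their values were seen, did not have it. Snai1 stood at 6.72, 6.90 and 6.80, against 6.94, and Snai2 at 7.52, 7.56 and 7.56, against 7.49. Zeb1 stood at 8.54, 8.56 and 8.59, against 8.55, and Zeb2 at 7.35, 7.35 and 7.32, against 7.45. In these bulk cultures fewer cells with a transcript and less of it per cell cannot be told apart.

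As measures of RNA and array quality, the 3′ control probe set for 18S ribosomal RNA stood at 7.72 in NT-1, 7.74 in NT-2 and 8.09 in NT-3, against 7.84 in Adeno-1, so it was lowest on the arrays where Krt8 was highest; its part in the keratin order was not tested. The gap between the 3′ and 5′ control probe sets of Actb was 0.28, 0.42 and 0.29 in NT-1, NT-2 and NT-3, against 0.22 in Adeno-1, which is another order than that of Krt8. Control probe sets for BioB, BioC, BioDn and Cre were all lowest on Adeno-1, while others, such as DapX-3, were not. BioB-5 stood at 8.55, 8.20 and 8.41, against 8.15, and BioC-5 at 10.15, 9.83 and 10.04, against 9.73. Their part in the differences between the lines and the clone was not tested. Across all probe sets, which are not independent replicates, Pearson's r between arrays was highest for NT-1 with NT-2 (0.9975) and lowest for NT-3 with Adeno-1 (0.9956).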

How the data were processed

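Total RNA of 4 cultures was copied into biotinylated cRNA and hybridised to Affymetrix mouse arrays, per the labels' protocols. Which software normalized the arrays is not given in the sources used here. Values as deposited by the authors are on a log2 scale, but their ratios (2 raised to the value) had a mean of 1 on each array and ran from 0.422 to 2.03, as when a probe set's log intensity is divided by the mean log intensity of its array. Each ratio was multiplied by 7, an assumed mean log2 intensity, to give a level. The table held 45101 probe sets, of which 64 controls were left out of the fits. Genes come from the platform annotation, with symbols and chromosomes from RefSeq (GRCm38.p6), and 34945 probe sets had 1 gene; no build is named for the values. Where a gene has several probe sets, the brightest stands for it in counts of genes. NT-ESC lines were compared with the clone by limma 3.58.1 in R 4.3.3 over all 45037 probe sets (two-sided, Benjamini-Hochberg threshold 0.05, degrees of freedom 2 residual and 3.79 prior). The fit was also run on simulated levels in which all probe sets had the same SD, unlike these data, so that run does not measure its power here. P-values rest on the spread between 3 arrays that may not be independent derivations, moderated by limma with the spread over all probe sets. Orders of single arrays are counts without a test.

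The members and the gene lists were chosen with earlier results of these data known. Genes named are the members, the 5 genes most like Krt8, up to 3 genes of each list by range among those reaching the median level, and Grhl2, Klf5, Tfap2c, Ctnnb1, Dsp, Jup, Ocln, Vim, Pou5f1, Nanog, Sox2, Cdx2, Gata6, Gata4, Sox17 and Col1a1. Some genes of the lists are not reported here. Alternatives were other assumed means, the deposited values, quantile normalization, no dim probe sets, 1 probe set per gene, a prior that follows the level, and each line left out. The number of arrays limits the precision.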

Additional observations from a re-analysis of the deposited data

How the results depend on the processing

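No probe set was called by limma, lines against clone, under any of the 10 alternatives run, with a smallest Benjamini-Hochberg adjusted p of 0.71 without NT-3 to 0.953 without NT-1. The other assumed means only rescale all levels, so they could not change any p-value. The median member difference, Krt8 and Krt18 included, was 0.152. It ran from 0.0779 with 1 probe set per gene to 0.171 with an assumed mean of 7.86 (brightest probe set at 16). The deposited scale, at 0.019, is apart from this range, and with a mean of 6 the median was 0.13. Krt8 and Krt18 chose the list, so nothing is read from this median. Without them it was -0.00582 in the main fit, against -0.00771 over all probe sets. Signs turned only for members near 0: with 1 line left out, Krt7 ran from -0.0758 (without NT-2) to 0.0682, Cldn4 from -0.110 to 0.175 (without NT-3) and Cldn7 from -0.166 to 0.0465 (without NT-3). The count of member probe sets with NT-1 and NT-2 above both other arrays was 7. It was also 7 on the deposited scale and without dim probe sets. The deposited scale keeps each probe set's order of arrays, and the only dim member, Krt7, lacked this order in the main setting. Neither alternative could therefore change the count. After quantile normalization it was again 7, where Krt7 had the order and Cldn7 lost it. It was 5 with 1 probe set per gene or a gap of at least 0.2. Comparing with 1 array fewer, an alternative chosen after seeing the data, gave 9 of 13 without NT-3 and 11 of 13 without Adeno-1. Fewer arrays make the condition easier to meet. All these counts include Krt8 and Krt18, whose order chose the list, so nothing is read from them. Leaving both genes out gave 5 of 9 without NT-3 (32.7% of all probe sets) and 7 of 9 without Adeno-1 (34.3%). With all arrays, 16.6% of all probe sets had the order, 16.3% after quantile normalization and 18.9% with 1 probe set per gene. The median of the other epithelial genes, 0.0166, ran from 0.00122 without NT-1 to 0.0349 without dim probe sets. No paired analysis was possible because the clone has 1 array and shares only 1 number with the lines. Signals of dim probe sets such as Krt7 and Cdx2 lie under the median level, where small differences cannot be read.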

Other observations

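Many genes of a list built around the actin cytoskeleton had the same order of arrays as Krt8. The list of 22 genes was put together after the values of Acta1, Tagln, Vcl and Ccn2 had been seen, so its counts are a description and no test is given. NT-1 and NT-2 were above Adeno-1 and NT-3 for 15 of the 22, where 18.9% of all genes had that order, and for 8 of the 22 the gap was at least 0.2, against 1.14% of all genes. The 4 genes that prompted the list all had such a gap, and of the other 18 genes 11 had the order and 4 the gap. Those 18 were not all unseen, since they include Acta2, which is also in the mesenchymal list above. The list also holds genes that do not encode cytoskeletal proteins, such as Srf, Ccn1, Ccn2 and Ankrd1. None passed limma's test between the lines and the clone (smallest Benjamini-Hochberg adjusted p = 0.849). Cnn2, a calponin, stood at 10.60 in NT-1, 10.54 in NT-2 and 10.23 in NT-3, against 10.20 in Adeno-1. Tpm1, a tropomyosin, stood at 10.38, 10.11 and 9.74, against 9.90, Flna, the actin crosslinker filamin A, at 10.49, 10.41 and 10.17, against 10.19, and Actn1, alpha-actinin, at 11.13, 11.05 and 10.74, against 10.76. Not every gene of the list had the order. Tagln2 stood at 10.62, 10.79 and 11.17, against 10.59, with NT-3 highest, and Srf, the factor that drives many of these genes, at 8.97, 9.02 and 8.97, against 9.09. The cytoplasmic actins had ranges of 0.16 for Actb and 0.12 for Actg1.

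Behind the 4 probe sets of Krt8 and Krt18, the next largest gap of this order among all probe sets was that of Nnat, an imprinted gene. Nnat stood at 5.96 in NT-1, 6.72 in NT-2 and 5.0 in NT-3, against 5.30 in Adeno-1, all under the median level of 6.83. After Nnat came a probe set that the annotation leaves unnamed (1435789_x_at), at 11.76, 11.55 and 10.69, against 10.92. Both were chosen after their values were seen.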
